A study of Mus musculus with 8 samples.

Results

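The genes of cholesterol synthesis and their sterol-regulated partners were followed in the corneas of mice with an eye-drop model of dry eye disease. The set held 33 genes, taken as the rows of the gene table whose symbol was on a list of 19 synthesis enzymes, 5 regulators of the SREBP pathway, 4 genes of sterol transport and storage inside the cell, and 5 genes of the LXR and efflux arm. All 33 had a row, of 13437 genes in the table. All 33 also passed the filter on low values, a mean of at least 0.5 FPKM (fragments counted per unit of transcript length, relative to library size) over the 8 samples. The mice were C57BL/6 females, 6 to 8 weeks old. BAC drops of 5 µl at 0.2% went onto both eyes of the BAC group 2 times a day over 7 days, and the PBS group had PBS in both eyes. Each group had 4 corneal RNA samples at day 7, which asks how gene expression in the cornea differs between dry eye and control mice. The labels do not say how many mice or eyes made up a sample, so the p-values describe the spread between samples, which may be technical in part.

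Cells make cholesterol from acetyl-CoA through mevalonate, farnesyl diphosphate, squalene and lanosterol. When sterols in the endoplasmic reticulum are low, the escort protein SCAP carries the transcription factor SREBP2 to the Golgi, where it is cut and released to switch on the enzymes of the pathway, and when sterols are plentiful the INSIG proteins hold SCAP back. Oxysterols act in the opposite sense through the LXR receptors, which switch on the cholesterol exporters. In the cornea an outer stratified epithelium renews itself throughout life over a stroma of keratocytes.

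Whole tables differed widely between the groups, and the counts for the set are read against that. Summed FPKM per sample ran between 268629 and 283538, and the depth behind the values is unknown. On the log2(FPKM + 1) scale, pairs of samples of one group correlated at 0.977 to 0.986 across genes and pairs from different groups at 0.784 to 0.836. Of 12967 genes tested, 8771 passed the threshold (67.6%), 45.1% higher and 22.6% lower with BAC, with a median log2 change of 0.19. Scaling by the median of ratios brought that median to 0.01, and quantile normalization brought it to -0.08. The tissue label was checked against Krt12, the keratin that defines corneal epithelium, which had 14.96, 9.05, 8.5 and 9.69 FPKM in BAC corneas, against 10033, 10586, 10370.2 and 10310.5 FPKM in PBS corneas. The defining keratin was thus near 10 FPKM in the BAC libraries, while Krt5, the keratin of basal epithelium, had 2031 ± 224 FPKM with BAC and 5557 ± 276 FPKM with PBS (SD, n = 4 each). Counted as lists, 19 of 20 macrophage markers were called higher with BAC and 1 lower, but 6 of the 20 had PBS means under the filter and were tested only through their BAC values, which fixed their direction. Of the corneal epithelial markers, 1 of which had a BAC mean under the filter, 11 of 14 fell, 2 rose and 1 did not pass.

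Short stretches before the start site are shown for 5 members, as 3 that fell (Hmgcs1, Lss and Insig1) and 2 that rose (Ebp and Abca1). They come from RefSeq on GRCm38.p6, read 5′ to 3′ on the strand of the gene, and end just before the start of the gene in RefSeq or in the deposited coordinates, whichever lies further upstream. Capitals mark TCACNCCAC, the core of a sterol regulatory element, and CCAAT, the box bound by NF-Y, each on either strand (a CCAAT box on the other strand reads ATTGG). The stretches are chr13:119690101-119690350 for Hmgcs1, chr10:76531355-76531587 for Lss and chr5:28071162-28071362 for Insig1, all on the plus strand, and chrX:8193513-8193762 for Ebp and chr4:53159896-53160145 for Abca1, both on the minus strand.
Hmgcs1: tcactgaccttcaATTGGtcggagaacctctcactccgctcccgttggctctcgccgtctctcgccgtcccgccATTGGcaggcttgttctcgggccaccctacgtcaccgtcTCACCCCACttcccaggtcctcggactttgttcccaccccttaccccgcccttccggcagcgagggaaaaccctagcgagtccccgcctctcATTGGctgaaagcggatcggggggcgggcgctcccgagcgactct
Lss: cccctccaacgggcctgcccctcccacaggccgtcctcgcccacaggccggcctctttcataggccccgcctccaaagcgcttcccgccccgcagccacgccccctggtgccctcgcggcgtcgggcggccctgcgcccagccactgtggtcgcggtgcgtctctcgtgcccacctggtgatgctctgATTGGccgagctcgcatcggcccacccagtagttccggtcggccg
Insig1: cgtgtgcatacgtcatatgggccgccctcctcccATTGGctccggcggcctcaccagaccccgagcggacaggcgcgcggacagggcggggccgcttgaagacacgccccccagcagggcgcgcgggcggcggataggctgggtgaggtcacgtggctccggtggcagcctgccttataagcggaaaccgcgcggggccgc
Ebp: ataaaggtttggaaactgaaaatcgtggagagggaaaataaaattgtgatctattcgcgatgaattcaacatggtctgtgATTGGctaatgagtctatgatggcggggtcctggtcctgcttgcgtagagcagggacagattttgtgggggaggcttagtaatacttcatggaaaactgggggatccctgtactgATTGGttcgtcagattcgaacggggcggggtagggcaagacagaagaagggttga
Abca1: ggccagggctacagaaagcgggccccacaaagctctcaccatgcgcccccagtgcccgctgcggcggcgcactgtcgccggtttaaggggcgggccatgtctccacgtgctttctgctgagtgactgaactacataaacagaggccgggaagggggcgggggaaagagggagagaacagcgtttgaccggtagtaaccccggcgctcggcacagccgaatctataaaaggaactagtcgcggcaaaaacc
The Hmgcs1 stretch held the sterol regulatory element core, its first base 137 bases before the RefSeq start, and 3 CCAAT boxes. The stretches of Lss and Insig1 held 1 CCAAT box each, that of Ebp held 2, and that of Abca1 held 0.

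RefSeq windows of 300 bases, 250 before and 50 after the start, were found for 27 of the 33 members. Fdps, Sqle, Fdft1, Stard4, Npc1 and Abcg1 had no window in the table. CCAAT stood in a window of 22 of the 27 members (81.5%), against 37.4% of all 32851 windows and 42.9% of 10034 tested genes with a window. By direction of change, it stood in 15 of 15 members that fell, in 4 of 7 that rose and in 3 of 5 that did not pass. All tested genes were not split by direction in this way, so this split has no background beside it. The 5 members without CCAAT were Acat2, Scap, Nr1h2, Nr1h3 and Abca1. GGGCGG, a GC box, stood in 23 of 27 members (85.2%), against 35.7% of windows and 67.8% of tested genes. CACGTG, an E-box that reads the same on both strands, stood in 6 of 27 members (22.2%), against 7.15% of windows and 11.4% of tested genes. TCACNCCAC stood in 1 of 27 members (3.70%), against 1.24% of windows and 1.39% of tested genes. AGGTCA, a half-site of nuclear receptors, stood in 3 of 27 members (11.1%), against 16.3% of windows and 15.1% of tested genes. All motifs were searched on both strands and no motif lies within another, and the matches describe the letters only.

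Most genes of cholesterol synthesis were lower in BAC corneas. Over all members, 28 of 33 passed the threshold (84.8%), against 67.6% of all genes tested, with 20 lower (60.6%, against 22.6% of all genes) and 8 higher (24.2%, against 45.1%). Under median-of-ratios scaling 21 members were lower and 7 higher, against 32.6% lower, 34.4% higher and 67.1% in all among all genes. With quantile normalization 21 were lower and 6 higher, against 38.3% lower, 30.4% higher and 68.7% in all among all genes. The median log2 change of the members was -0.73, against 0.19 over all genes. The libraries of the groups did not overlap for 27 members, 19 lower and 8 higher, against 20.9% lower and 42.6% higher of all genes. A log2 change of -1 or below that passed the threshold was found in 12 members, against 6.34% of all genes, and a log2 change of 1 or above in 3, against 16.5% of all genes. In bulk tissue, fewer cells of a type and less RNA per cell cannot be told apart, and this holds for each value given here.

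**Figure D1:**
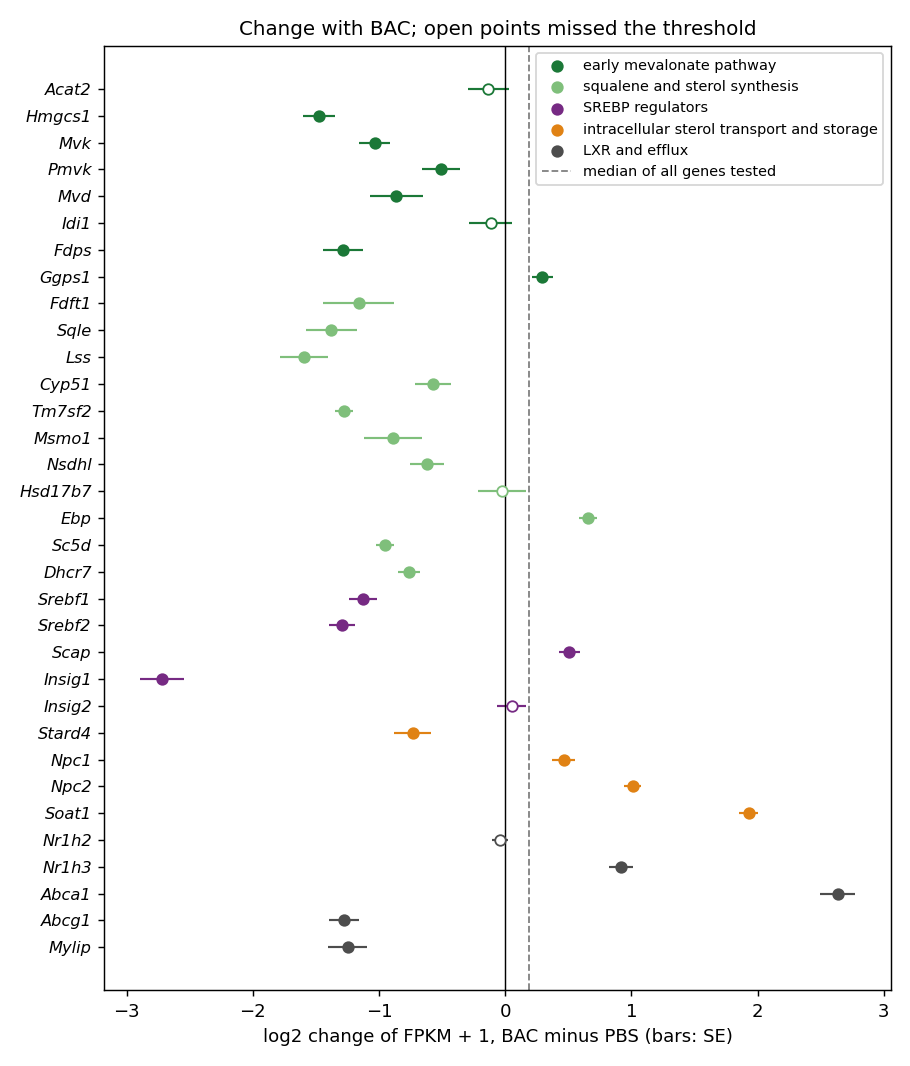
Log2 change of FPKM + 1, BAC minus PBS, for the 33 members in pathway order from top to bottom, with bars for the standard error (n = 4 each), filled points past the threshold of adjusted p 0.05 and open points not past it. The 20 filled points left of 0 run down to Insig1 at -2.72, the 8 to the right run up to Abca1 at 2.63, and the dashed line is the median of all genes at 0.19.

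The first steps, acetyl-CoA to farnesyl and geranylgeranyl diphosphate, had 8 enzymes. Of these, 5 fell (62.5%, against 22.6% of all genes), 1 rose (12.5%, against 45.1%) and 2 did not pass. Hmgcs1, which makes HMG-CoA and sits at chr13:119690379-119708260 on GRCm38, had 61.6, 48.7, 49.01 and 72.2 FPKM in BAC corneas, against 162, 167, 142 and 173 FPKM in PBS corneas. Its BAC libraries all lay below the lowest PBS library, 2.78-fold lower in the mean (log2 change -1.48, SE 0.13, limma adjusted p = 7.36e-06). Fdps, which makes farnesyl diphosphate, had 39.4, 25.9, 28.6 and 43.7 FPKM in BAC corneas, against 85.4, 92.99, 76.3 and 80.01 FPKM in PBS corneas. It too showed no overlap, at 2.43-fold lower (log2 change -1.29, SE 0.16, limma adjusted p = 7.37e-05). Mvk, the mevalonate kinase, averaged 8.42 ± 1.51 FPKM with BAC and 18.2 ± 2.08 FPKM with PBS (SD, n = 4 each), a log2 change of -1.03 (limma adjusted p = 6.09e-05). Mvd, which decarboxylates mevalonate diphosphate to isopentenyl diphosphate, averaged 8.03 ± 2.57 FPKM with BAC and 15.03 ± 2.66 FPKM with PBS, a log2 change of -0.86 (limma adjusted p = 0.00521). Pmvk, the kinase between them, had 18.4, 13.9, 16.4 and 22.7 FPKM in BAC corneas, against 27.6, 29.996, 23.4 and 21.5 FPKM in PBS corneas. The highest Pmvk value with BAC, in BAC 4, was above the lowest with PBS, in PBS 4, so the groups overlapped although the gene passed (log2 change -0.51, SE 0.15, limma adjusted p = 0.0143).

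Acat2, the cytosolic thiolase that starts the pathway, did not pass, and had 26.7, 20.9, 23.9 and 37.8 FPKM in BAC corneas, against 28.4, 33.3, 28.5 and 27.5 FPKM in PBS corneas. BAC 4 was the highest of all 8 libraries and BAC 2 the lowest, so the groups overlapped (log2 change -0.13, SE 0.16, limma adjusted p = 0.48). Without BAC 4 the log2 change of Acat2 was -0.30 with a limma adjusted p of 0.0286. Idi1, the isomerase of isopentenyl diphosphate, likewise had 39.4, 29.6, 29.1 and 50.6 FPKM in BAC corneas, against 39.7, 45.9, 35.98 and 36.5 FPKM in PBS corneas. BAC 4 was again above every PBS library, and BAC 2 and BAC 3 were below them (log2 change -0.11, SE 0.17, limma adjusted p = 0.57). Ggps1, which leads off the pathway to the geranylgeranyl groups put on proteins, had 7.65, 8.27, 7.58 and 6.27 FPKM in BAC corneas, against 6.14, 5.97, 5.81 and 5.52 FPKM in PBS corneas. The lowest BAC value stood just above the highest PBS value, and Ggps1 rose by 1.27-fold (log2 change 0.29, SE 0.08, limma adjusted p = 0.0119). Under median-of-ratios scaling its log2 change was 0.10 (limma adjusted p = 0.312), so that call did not hold under every scaling.

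The steps committed to sterols, squalene to cholesterol, had 11 enzymes. Of these, 9 fell (81.8%, against 22.6% of all genes), 1 rose (9.09%, against 45.1%) and 1 did not pass. Fdft1, the squalene synthase, had 25.7, 10.01, 11.03 and 16.9 FPKM in BAC corneas, against 38.4, 30.9, 26.4 and 44.9 FPKM in PBS corneas. Only a small gap, between BAC 1 and PBS 3, kept the groups apart, and the SE was the largest among the enzymes (log2 change -1.16, SE 0.28, limma adjusted p = 0.00468). Sqle, the squalene epoxidase, had 26.2, 14.4, 19.9 and 31.2 FPKM in BAC corneas, against 57.1, 66.4, 59.5 and 53.01 FPKM in PBS corneas, 2.57-fold lower in the mean and without overlap (log2 change -1.38, SE 0.20, limma adjusted p = 0.000244). Lss, which closes squalene epoxide into lanosterol, had 5.05, 3.34, 3.61 and 6.74 FPKM in BAC corneas, against 14.3, 20.1, 14.4 and 14.7 FPKM in PBS corneas. It was the enzyme with the lowest log2 change, 3.39-fold lower in the mean, and its highest BAC value was below all PBS values (log2 change -1.60, SE 0.19, limma adjusted p = 5.72e-05).

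Among the enzymes that turn lanosterol into cholesterol, all but Hsd17b7 and Ebp fell. Tm7sf2, a sterol reductase of the endoplasmic reticulum, had 1.91, 1.72, 1.56 and 1.76 FPKM in BAC corneas, against 5.14, 5.94, 5.65 and 5.82 FPKM in PBS corneas. Both groups were narrow and far apart, 3.25-fold lower in the mean (log2 change -1.28, SE 0.07, limma adjusted p = 5.06e-07). Cyp51, the lanosterol demethylase, averaged 31.8 ± 6.97 FPKM with BAC and 47.1 ± 3.76 FPKM with PBS (SD, n = 4 each; log2 change -0.57, SE 0.14, limma adjusted p = 0.00551). Msmo1 and Nsdhl, which remove the methyl groups at carbon 4 together with Hsd17b7, averaged 14.8 ± 5.12 FPKM with BAC and 27.8 ± 6.82 FPKM with PBS for Msmo1, and 23.03 ± 4.75 FPKM with BAC and 35.5 ± 3.37 FPKM with PBS for Nsdhl. Both fell, with log2 changes of -0.89 for Msmo1 (limma adjusted p = 0.00668) and -0.62 for Nsdhl (limma adjusted p = 0.00252), and neither showed overlap. Hsd17b7, the reductase of that complex, did not pass, at 11.6, 6.15, 7.79 and 12.5 FPKM in BAC corneas, against 9.26, 10.7, 8.95 and 8.7 FPKM in PBS corneas. BAC 1 and BAC 4 were above all PBS libraries, and BAC 2 and BAC 3 were below them (log2 change -0.03, SE 0.19, limma adjusted p = 0.905).

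Ebp, the sterol isomerase that follows, was the enzyme gene that rose under each scaling tried. It had 28.4, 23.3, 26.6 and 26.2 FPKM in BAC corneas, against 16.8, 16.04, 16.5 and 15.3 FPKM in PBS corneas. All BAC values were above all PBS values, 1.62-fold higher in the mean (log2 change 0.66, SE 0.07, limma adjusted p = 2.73e-05), and the log2 change was 0.45 under median-of-ratios scaling (limma adjusted p = 0.000549). The next enzyme, Sc5d, the desaturase that acts on lathosterol, had 34.8, 29.1, 29.7 and 32.2 FPKM in BAC corneas, against 65.5, 61.3, 59.4 and 60.3 FPKM in PBS corneas. Its groups were tight and did not overlap, with Sc5d 1.96-fold lower with BAC (log2 change -0.95, SE 0.07, limma adjusted p = 2.16e-06). Dhcr7, which makes cholesterol in the last reduction of its branch, averaged 4.74 ± 0.676 FPKM with BAC and 8.69 ± 0.30 FPKM with PBS (SD, n = 4 each; log2 change -0.76, SE 0.09, limma adjusted p = 5.38e-05).

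**Figure D2:**
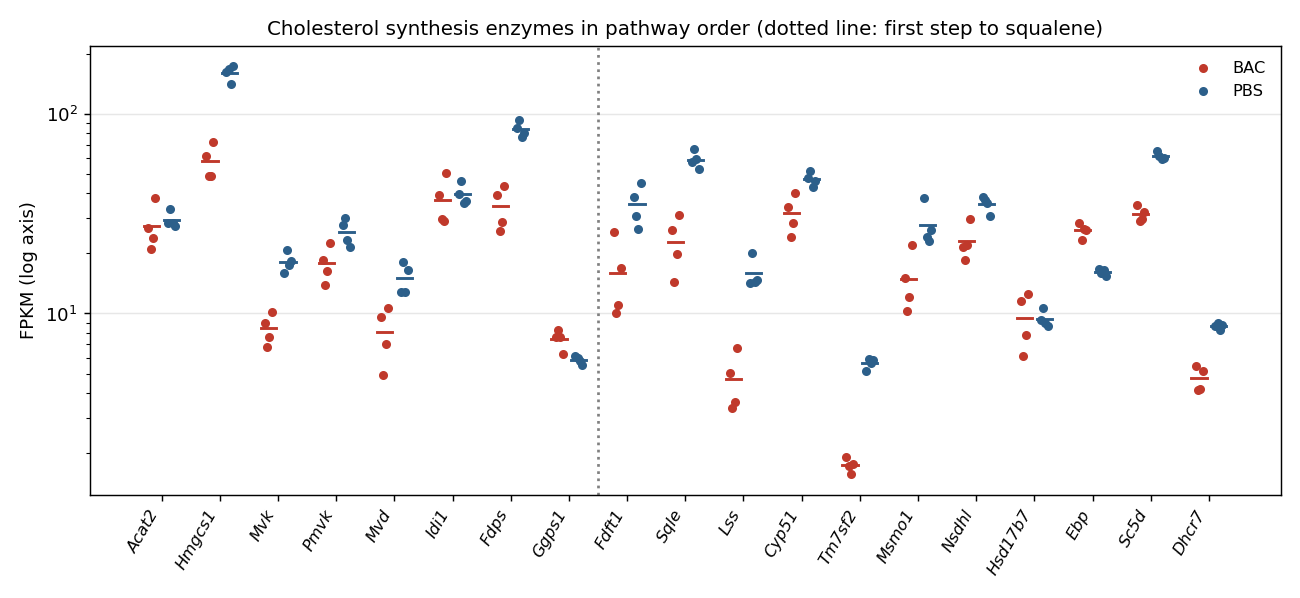
FPKM of the 19 synthesis enzymes in each of the 8 libraries on a log axis, in pathway order, BAC points left of PBS points, with a line at each group mean. Hmgcs1 was the highest enzyme in both groups and Tm7sf2 the lowest, and the BAC points of Acat2, Idi1 and Hsd17b7 straddle the PBS points.

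Summed over the 19 enzymes, FPKM was 421.8, 304.1, 336.3 and 478.7 in BAC corneas, against 716.7, 747.8, 642.6 and 693.9 in PBS corneas. The sum averaged 385.2 ± 79.7 with BAC and 700.3 ± 44.3 with PBS (SD, n = 4 each), a ratio of 0.550, or 0.472 under median-of-ratios scaling. The median log2 change of the enzymes was -0.86, against 0.19 over all genes. Beside this sum, the summed FPKM of the 14 corneal epithelial markers was 5350 to 6619 with BAC and 27419 to 28949 with PBS, and their part in the difference was not tested. The summed FPKM of 14 proliferation markers was 309 to 424 with BAC and 146 to 186 with PBS. All 14 rose, against 45.1% of all genes, and their part in the difference was not tested either.

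The order of the enzymes by level, in FPKM and so per length, differed in part between the groups. In BAC corneas Hmgcs1 came first in the mean, at 57.9 FPKM, with a range that overlapped with that of Idi1 at 37.2 FPKM, and each neighbour from Hmgcs1 down to Ggps1, ranked 16, overlapped. In PBS corneas Hmgcs1 also came first, at 161 FPKM, followed by Fdps at 83.7 FPKM, and neither overlapped with its next neighbour there. Sc5d at 61.6 FPKM and Sqle at 59.03 FPKM came next with PBS, with overlapping ranges. Tm7sf2 was last in both, at 1.74 FPKM with BAC and 5.64 FPKM with PBS, without overlap with the next enzyme. Ebp was ranked 7 with BAC and 13 with PBS.

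The enzymes varied together between libraries of one group. Among the BAC libraries, BAC 4 was highest for 13 of 19 enzymes (68.4%), against 29.6% of all genes tested, and BAC 2 was lowest for 16 of 19 (84.2%), against 18.3%. The median deviation of the enzymes from the group mean was 0.12, -0.32, -0.14 and 0.36 on the log2 scale in BAC 1 to BAC 4, and 0.01, 0.14, -0.06 and -0.06 in PBS 1 to PBS 4. BAC 1 and BAC 4 were above the group mean for 18 enzymes each, and BAC 2 and BAC 3 for 1 and 2. The spread along this shared axis was thus wider with BAC than with PBS in these 8 libraries. Under median-of-ratios scaling, an alternative chosen after seeing the data, BAC 2 was lowest for 17 enzymes and BAC 4 highest for 13. Leaving out any one library kept the number of members that fell at 20 or 21 and the number that rose at 8. In the PBS group, PBS 2 was highest for 12 of 19 enzymes (63.2%), against 19.6% of all genes. Summed corneal epithelial markers had 6619, 6016, 5350 and 6493 FPKM in BAC 1 to BAC 4, so that BAC 1 and BAC 4 were the higher libraries here as for the enzymes, although BAC 3 and not BAC 2 was lowest. Summed macrophage markers did not run in this order, at 1517, 1504, 1608 and 1323 FPKM in BAC 1 to BAC 4, whereas summed proliferation markers were highest in BAC 4 at 424.0 FPKM, with 309.2, 354.0 and 309.2 FPKM in BAC 1 to BAC 3. The part of these marker lists in the order was not tested.

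**Figure D3:**
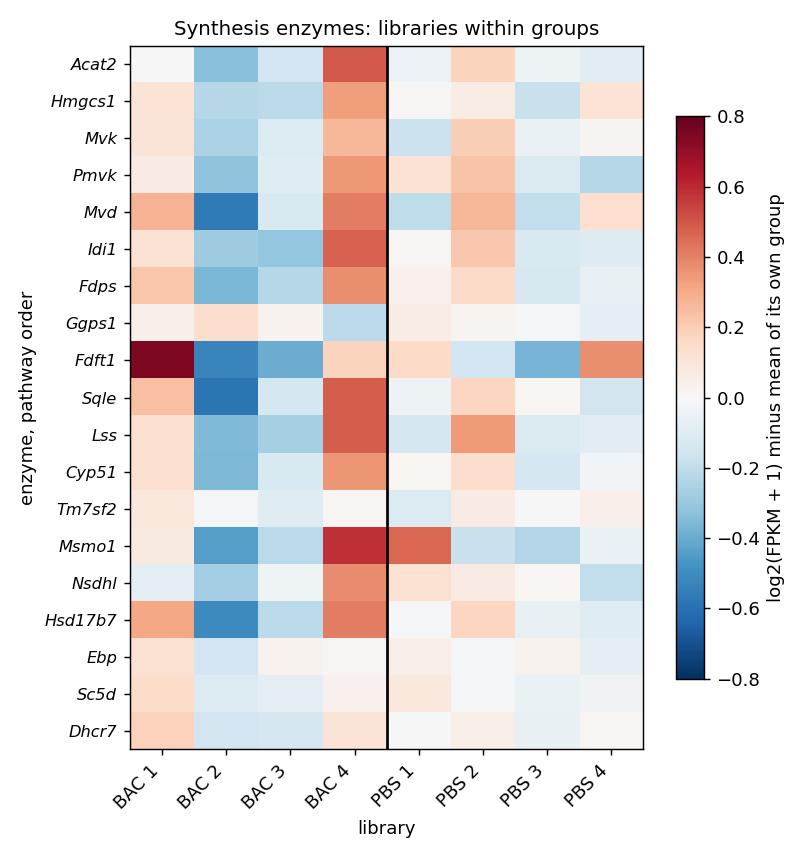
Deviation of each synthesis enzyme (down the page in pathway order) from its own group mean on the log2(FPKM + 1) scale, by library, BAC libraries left of PBS libraries, as a colour from blue (below the mean) to red (above). Most enzymes are blue in BAC 2 and red in BAC 4, the medians are -0.32 in BAC 2 and 0.36 in BAC 4, and the PBS medians lie between -0.06 and 0.14.

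Of the 5 SREBP regulators, 3 fell (against 22.6% of all genes), 1 rose (against 45.1%) and 1 did not pass. Their median log2 change was -1.13, against 0.19 over all genes. Srebf2, which encodes SREBP2 at chr15:82147266-82205376, had 23.8, 20.9, 20.1 and 23.9 FPKM in BAC corneas, against 45.8, 61.5, 59.2 and 57.4 FPKM in PBS corneas. The groups were far apart, and Srebf2 was 2.52-fold lower with BAC (log2 change -1.29, SE 0.10, limma adjusted p = 3.59e-06). Srebf1, whose products act mainly on fatty acid synthesis, had 6.06, 5.97, 4.74 and 6.4 FPKM in BAC corneas, against 11.7, 14.998, 13.04 and 15.7 FPKM in PBS corneas. It was 2.39-fold lower, again without overlap (log2 change -1.13, SE 0.11, limma adjusted p = 1.6e-05). Scap, the escort of SREBP, went the other way, at 9.73, 9.99, 8.76 and 9.24 FPKM in BAC corneas, against 5.44, 6.32, 6.67 and 7.01 FPKM in PBS corneas. Every BAC library was above every PBS library, 1.48-fold higher in the mean (log2 change 0.51, SE 0.08, limma adjusted p = 0.000463). The ratio of Srebf2 to Scap in FPKM averaged 2.35 with BAC and 8.80 with PBS.

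Insig1 had the lowest log2 change of all members, and its close relative Insig2 did not pass. Insig1, itself a target of SREBP and a brake on it, at chr5:28071363-28078662, had 16.2, 11.99, 14.2 and 20.8 FPKM in BAC corneas, against 124, 129, 92.2 and 90.7 FPKM in PBS corneas. No BAC value came near the PBS values, and Insig1 was 6.9-fold lower in the mean (log2 change -2.72, SE 0.17, limma adjusted p = 9.7e-07). Insig2, which holds SCAP in the same way, had 23.6, 24.4, 19.3 and 19.1 FPKM in BAC corneas, against 24.1, 18.1, 18.99 and 21.98 FPKM in PBS corneas. Its groups overlapped over most of their range (log2 change 0.05, SE 0.12, limma adjusted p = 0.7). The ratio of Insig1 to Insig2 was 0.490 to 1.09 with BAC, 0.750 ± 0.250 on average, and 4.13 to 7.12 with PBS, 5.31 ± 1.28 on average (SD, n = 4 each). Among the BAC libraries Insig1 was highest in BAC 4 and lowest in BAC 2, like most enzymes.

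In the wider machinery that processes SREBP or degrades sterol-regulated proteins, 14 genes outside the set were tested. Of these, 6 rose (42.9%, against 45.1% of all genes), 5 fell (35.7%, against 22.6%) and 3 did not pass. These counts moved to 2 higher and 7 lower under median-of-ratios scaling, against 34.4% and 32.6% of all genes. With quantile normalization they were 1 higher and 7 lower, against 30.4% and 38.3% of all genes. The balance thus turned, and the shares of all genes moved the same way. Erlin1 and Erlin2, membrane proteins of the endoplasmic reticulum, both fell. Erlin2 averaged 19.6 ± 0.93 FPKM with BAC and 28.8 ± 0.505 FPKM with PBS, a log2 change of -0.53 (limma adjusted p = 2.18e-05), and Erlin1 averaged 13.9 ± 1.65 FPKM with BAC and 19.3 ± 0.767 FPKM with PBS, a log2 change of -0.45 (limma adjusted p = 0.00132). Tmem97, a sterol-responsive membrane protein that binds NPC1, rose, with 21.3, 18.1, 21.7 and 31.2 FPKM in BAC corneas, against 11.5, 11.9, 12.4 and 13.1 FPKM in PBS corneas. Its BAC values were all above its PBS values, with BAC 4 highest and BAC 2 lowest (log2 change 0.84, SE 0.14, limma adjusted p = 0.000598).

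Of the 4 genes of sterol transport and storage inside the cell, 3 rose (75.0%, against 45.1% of all genes) and 1 fell (25.0%, against 22.6%). Their median log2 change was 0.74, against 0.19 over all genes. Stard4, a carrier of cholesterol between membranes and a known SREBP2 target, fell, with 12.7, 9.19, 10.3 and 14.7 FPKM in BAC corneas, against 18.6, 23.02, 17.2 and 21.3 FPKM in PBS corneas. The groups did not overlap, and BAC 4 was again highest and BAC 2 lowest among the BAC libraries (log2 change -0.73, SE 0.14, limma adjusted p = 0.00148). Npc2, which lifts cholesterol out of lipoproteins in the lysosome, had 46.05, 41.7, 47.2 and 43.6 FPKM in BAC corneas, against 22.8, 19.95, 21.1 and 22.7 FPKM in PBS corneas, 2.06-fold higher without overlap (log2 change 1.01, SE 0.07, limma adjusted p = 1.11e-06). Its membrane partner Npc1 had 7.44, 7.97, 7.82 and 7.79 FPKM in BAC corneas, against 4.29, 5.87, 5.94 and 5.44 FPKM in PBS corneas. Npc1 was 1.44-fold higher (log2 change 0.46, SE 0.09, limma adjusted p = 0.0017), and after quantile normalization its log2 change was 0.21 with a limma adjusted p of 0.0635. Soat1, which esterifies cholesterol for storage, at chr1:156424525-156474331, had 6.42, 6.48, 7.12 and 6.52 FPKM in BAC corneas, against 0.875, 1.02, 0.942 and 1.2 FPKM in PBS corneas. Its BAC libraries lay within 1 FPKM of each other and 6.59-fold above the PBS mean (log2 change 1.93, SE 0.08, limma adjusted p = 6e-08).

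Of the 5 LXR and efflux genes, 2 rose (40.0%, against 45.1% of all genes), 2 fell (40.0%, against 22.6%) and 1 did not pass. The exporters split in direction. Abca1, which passes cholesterol to lipid-poor apolipoproteins, at chr4:53030787-53159895, had 16.8, 23.2, 20.4 and 16.8 FPKM in BAC corneas, against 1.997, 2.35, 1.8 and 2.95 FPKM in PBS corneas. Every BAC library was above every PBS library, 8.49-fold higher in the mean (log2 change 2.63, SE 0.14, limma adjusted p = 2.89e-07), the highest log2 change among the members. Abcg1, which passes cholesterol to formed high-density lipoprotein, had 7.58, 8.93, 6.59 and 6.23 FPKM in BAC corneas, against 19.6, 20.9, 20.2 and 15.9 FPKM in PBS corneas. It lay the other way with no overlap, 2.61-fold lower (log2 change -1.28, SE 0.12, limma adjusted p = 1.11e-05). The ratio of Abca1 to Abcg1 was 2.21 to 3.10 with BAC, 2.65 ± 0.365 on average, and 0.0889 to 0.186 with PBS, 0.122 ± 0.0434 on average (SD, n = 4 each).

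Mylip, an LXR-induced ubiquitin ligase that removes lipoprotein receptors, had 21.1, 22.7, 17.2 and 13.3 FPKM in BAC corneas, against 39.2, 43.7, 45.6 and 50.9 FPKM in PBS corneas. It fell like Abcg1, 2.41-fold lower and without overlap (log2 change -1.25, SE 0.15, limma adjusted p = 7.6e-05). Of the receptors themselves, Nr1h3, which encodes LXR alpha, had 1.23, 1.49, 1.51 and 1.65 FPKM in BAC corneas, against 0.388, 0.22, 0.442 and 0.188 FPKM in PBS corneas. Nr1h3 was 4.75-fold higher with BAC (log2 change 0.92, SE 0.10, limma adjusted p = 2.25e-05), but it was the only member whose PBS mean was under the filter, so it was tested on the strength of its BAC values. Nr1h2, which encodes the widely expressed LXR beta, had 8.81, 9.54, 8.33 and 9.2 FPKM in BAC corneas, against 9.42, 8.53, 9.67 and 9.43 FPKM in PBS corneas. Its groups overlapped (log2 change -0.04, SE 0.07, limma adjusted p = 0.6), although it passed as lower under median-of-ratios scaling at a log2 change of -0.24 (limma adjusted p = 0.00718). Among the BAC libraries, 4 of these 5 genes (80.0%) were highest in BAC 2, against 26.3% of all genes tested. This was the library that was lowest for most enzymes. In the PBS group, PBS 2 was highest for most enzymes. Of these 5 genes, PBS 2 was highest for 1 and lowest for 1.

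**Figure D4:**
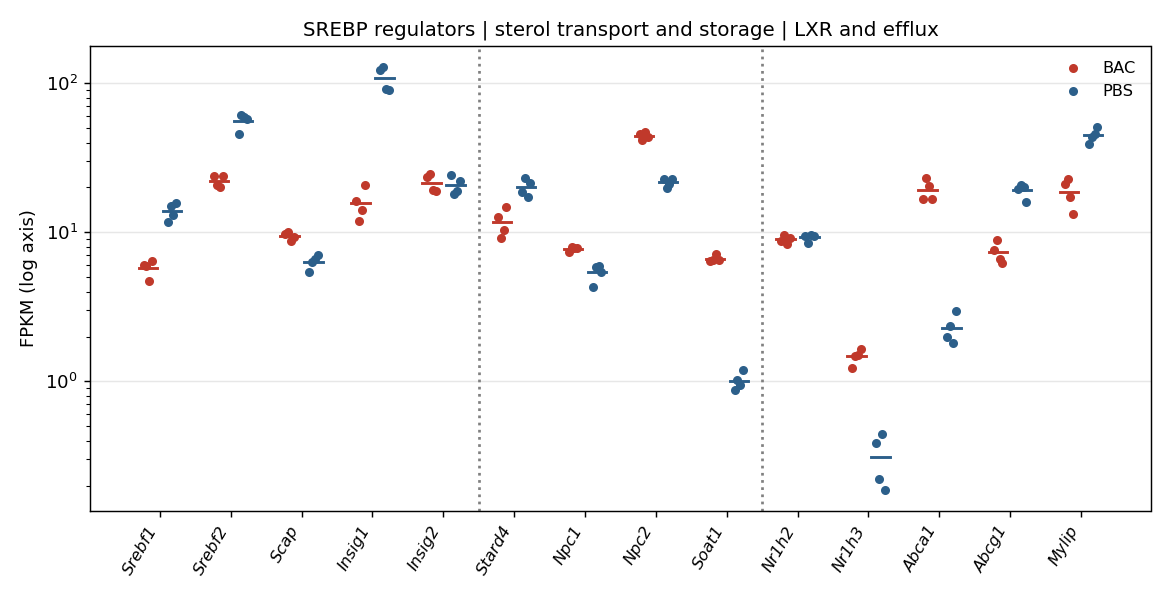
FPKM of the SREBP regulators, the transport and storage genes and the LXR and efflux genes in each library on a log axis, BAC points left of PBS points, with a line at each group mean. Insig1 and Abcg1 are lower and Abca1 and Soat1 higher in all BAC libraries, while the points of Insig2 and Nr1h2 overlap.

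Summed markers of myeloid cells and vessels were higher with BAC, as were the transport and LXR members that rose. Beside the counts of markers given here, 45.1% of all genes tested rose and 22.6% fell. The summed FPKM of 20 macrophage markers was 1323 to 1608 with BAC and 316 to 347 with PBS, and that of the neutrophil markers, 11 of 12 tested higher and 1 lower, but 7 of the 12 with a PBS mean under the filter, was 970 to 1938 with BAC and 25.4 to 55.5 with PBS. Lyz2, a lysozyme of myeloid cells, averaged 590.1 ± 72.99 FPKM with BAC and 11.3 ± 2.8 FPKM with PBS, whereas Lgals3, a macrophage lectin also made by epithelia, averaged 200.3 ± 18.2 FPKM with BAC and 256 ± 15.6 FPKM with PBS. Of the neutrophil markers, Retnlg and Mmp8 were listed at 0 in all PBS libraries. Endothelial markers, 10 of 10 higher with 1 of the 10 under the filter in PBS, had sums of 136 to 172 FPKM with BAC and 8.4 to 18.7 FPKM with PBS. Markers of sebaceous and meibomian glands, neighbours of the eye surface rich in lipid synthesis, were sparse, with 4 of 15 tested, all 4 higher and 1 of them under the filter in PBS, and sums of 25.9 to 28.2 FPKM with BAC and 7.3 to 8.5 FPKM with PBS. One of those 4 was Soat1 itself. Of 10 keratocyte markers 5 rose (50.0%), 3 fell (30.0%) and 2 did not pass, shares near those of all genes. Their sums were 1982 to 2285 FPKM with BAC and 686 to 1451 FPKM with PBS. The part of these cell types in the changes of Abca1, Soat1, Npc2 and Nr1h3 was not tested.

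Genes that handle cholesterol beyond the set gave a different balance from the enzymes. Of 73 such genes tested, of 86 symbols listed, 38 rose (52.1%, against 45.1% of all genes), 21 fell (28.8%, against 22.6%) and 14 did not pass, with a median log2 change of 0.24 against 0.19 over all genes, so the median of the list sat near that of all genes. The balance of rises and falls turned with the scaling. Scaling by the median of ratios gave 29 higher and 25 lower, against 34.4% and 32.6% of all genes, and quantile normalization gave 23 higher and 26 lower, against 30.4% and 38.3%. For 7 of them, Gramd1b, Soat2, Lcat, Ch25h, Msr1, Cd36 and Stab1, the filter was passed through the BAC values.

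The genes of cholesterol ester turnover were 6 tested. Of these, 4 were higher (66.7%, against 45.1% of all genes) and 2 lower (33.3%, against 22.6%). Soat2 and Lcat, among those higher, had PBS means under the filter and were tested on the strength of their BAC values. Ces1d, a carboxylesterase, had 1.84, 1.34, 2.94 and 1.17 FPKM in BAC corneas, against 142, 143, 137 and 155 FPKM in PBS corneas, 79.1-fold lower (log2 change -5.72, SE 0.17, limma adjusted p = 1.49e-08). Nceh1, a hydrolase of cholesterol esters in macrophages, averaged 6.37 ± 0.428 FPKM with BAC and 0.651 ± 0.14 FPKM with PBS, and Lipa, the acid lipase of the lysosome, averaged 31.2 ± 1.54 FPKM with BAC and 9.42 ± 1.73 FPKM with PBS (SD, n = 4 each). Both rose, with log2 changes of 2.16 for Nceh1 (limma adjusted p = 6e-08) and 1.64 for Lipa (limma adjusted p = 1.1e-06). Soat2, the second cholesterol acyltransferase, was listed at 0 in all PBS libraries and had 1.09 to 2.68 FPKM with BAC. Ester hydrolases therefore stood on both sides, with Ces1d lower and Nceh1 and Lipa higher.

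Enzymes that turn cholesterol into oxysterols, sulphates or bile acid precursors were 6 tested. Of these, 5 were higher (83.3%, against 45.1% of all genes) and 1 lower (16.7%, against 22.6%). Ch25h, among the 6, had a PBS mean under the filter and was tested on the strength of its BAC values. Cyp7b1, an oxysterol hydroxylase, averaged 8.15 ± 1.33 FPKM with BAC and 0.987 ± 0.164 FPKM with PBS, a log2 change of 2.20 (limma adjusted p = 2.93e-07). Sult2b1, the cholesterol sulphotransferase of stratified epithelia, averaged 5.74 ± 0.677 FPKM with BAC and 0.558 ± 0.246 FPKM with PBS, a log2 change of 2.12 (limma adjusted p = 7.05e-07). Cyp27a1, a mitochondrial sterol hydroxylase, averaged 17.6 ± 2.02 FPKM with BAC and 6.07 ± 1.02 FPKM with PBS, a log2 change of 1.40 (limma adjusted p = 7.05e-06). Each of the 3 was without overlap between groups.

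Sterol transport proteins outside the set had 16 tested genes, 8 higher (50.0%, against 45.1% of all genes) and 4 lower (25.0%, against 22.6%), near the background. The counts were 7 higher and 6 lower under median-of-ratios scaling, against 34.4% and 32.6% of all genes. They were 5 higher and 6 lower with quantile normalization, against 30.4% and 38.3% of all genes. Stard5, a carrier related to Stard4, averaged 7.22 ± 0.72 FPKM with BAC and 0.982 ± 0.17 FPKM with PBS, a log2 change of 2.05 (limma adjusted p = 1.36e-07), opposite in direction to Stard4. Gramd1a, which moves cholesterol from the plasma membrane inwards, averaged 10.5 ± 1.37 FPKM with BAC and 1.94 ± 0.282 FPKM with PBS, a log2 change of 1.97 (limma adjusted p = 3.39e-07). Osbpl5, a lipid exchanger at membrane contacts, averaged 11.8 ± 0.968 FPKM with BAC and 25.4 ± 0.878 FPKM with PBS, a log2 change of -1.05 (limma adjusted p = 1.02e-06). Lipoprotein receptors outside the set had 8 tested genes, 6 higher (75.0%, against 45.1% of all genes) and 2 lower (25.0%, against 22.6%). The named receptors, the scavenger receptors Stab1, Msr1 and Cd36, had PBS means below the filter, and Msr1 is also a macrophage marker. Stab1 averaged 8.65 ± 1.31 FPKM with BAC and 0.494 ± 0.125 FPKM with PBS, Msr1 averaged 5.81 ± 1.68 FPKM with BAC and 0.0571 ± 0.0342 FPKM with PBS and Cd36 averaged 5.32 ± 1.14 FPKM with BAC and 0.264 ± 0.114 FPKM with PBS.

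Side branches that use farnesyl and geranylgeranyl diphosphate had 14 tested genes, 6 higher (42.9%, against 45.1% of all genes) and 3 lower (21.4%, against 22.6%), shares near the background. With quantile normalization 3 were higher and 4 lower, against 30.4% and 38.3% of all genes. Nus1, a subunit of the enzyme that builds dolichol, averaged 26.7 ± 1.63 FPKM with BAC and 12.9 ± 1.32 FPKM with PBS, a log2 change of 0.99 (limma adjusted p = 3.96e-06). Srd5a3, which finishes dolichol, averaged 6.25 ± 0.277 FPKM with BAC and 3.01 ± 0.405 FPKM with PBS, a log2 change of 0.86 (limma adjusted p = 1.66e-05). Pdss1, which builds the tail of coenzyme Q, averaged 2.27 ± 0.473 FPKM with BAC and 1.03 ± 0.171 FPKM with PBS, a log2 change of 0.68 (limma adjusted p = 0.000575), and did not pass after quantile normalization. LXR partners and other LXR targets had 9 tested genes, 3 higher (33.3%, against 45.1% of all genes) and 4 lower (44.4%, against 22.6%). Under median-of-ratios scaling 1 was higher and 4 lower, against 34.4% and 32.6% of all genes. The counts were the same with quantile normalization, against 30.4% and 38.3% of all genes. Scd2, a stearoyl-CoA desaturase, had 91.6, 71.2, 63.1 and 95.9 FPKM in BAC corneas, against 305, 407, 357 and 393 FPKM in PBS corneas, 4.54-fold lower (log2 change -2.18, SE 0.15, limma adjusted p = 1.23e-06). Pltp, a phospholipid transfer protein, went the other way with 19.7 ± 2.82 FPKM with BAC and 4.41 ± 1.33 FPKM with PBS, a log2 change of 1.96 (limma adjusted p = 1.31e-05), and Lpcat3, an acyltransferase of phospholipids, fell with a log2 change of -0.46 (limma adjusted p = 0.0021). As with Abca1 and Abcg1, LXR targets stood on both sides.

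At the level of transcripts the members had 85 in the deposited table and 79 tested. Of these, 19 fell (24.1%, against 11.6% of all 23349 transcripts tested), 8 rose (10.1%, against 23.0%) and 52 did not pass, and the 34.2% called was near the 34.6% of all transcripts. The median log2 change was -0.37, against 0.13 over all transcripts. Of the isoforms of Hmgcs1, the most abundant, Hmgcs1-202, fell, with 76.5, 50.1, 63.5 and 84.7 FPKM in BAC corneas, against 201, 209.7, 175 and 226 FPKM in PBS corneas (log2 change -1.57, SE 0.16, limma adjusted p = 0.000166), and so did the scarce Hmgcs1-203 (log2 change -0.98), while Hmgcs1-201 missed the threshold (log2 change of -0.38, SE 0.74, limma adjusted p = 0.743). For Srebf1, Srebf1-203 had 4.75, 0, 3.62 and 4.25 FPKM in BAC corneas, against 10.7, 13.9, 11.05 and 14.6 FPKM in PBS corneas (log2 change -1.97, SE 0.54, limma adjusted p = 0.0236). Srebf1-201 had 2.96, 6.96, 2.13 and 3.37 FPKM in BAC corneas, against 3.36, 3.79, 3.93 and 3.81 FPKM in PBS corneas (log2 change -0.05, SE 0.27, limma adjusted p = 0.911), and the scarce Srebf1-207 fell (log2 change -0.96). Whether the isoforms differed in change was not tested. BAC 2 stood apart, with Srebf1-203 listed at 0 and the highest Srebf1-201 value.

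For other members the split between isoforms moved from library to library within a group. Dhcr7-201 had 8.43, 2.79, 8.51 and 10.004 FPKM in BAC corneas, against 13.4, 17.2, 0 and 0 FPKM in PBS corneas, and Dhcr7-202 had 0, 0, 0 and 0 FPKM in BAC corneas, against 0, 0, 17.7 and 18.8 FPKM in PBS corneas. Of these isoforms, PBS 1 and PBS 2 had Dhcr7-201 alone and PBS 3 and PBS 4 had Dhcr7-202 alone, while the gene as a whole lay between 8.28 and 8.99 FPKM in those libraries. Sqle-201 had 51.7, 13.5, 13.8 and 62.02 FPKM in BAC corneas, against 44.2, 75.99, 118 and 42.8 FPKM in PBS corneas, and Sqle-202 had 0, 11.6, 24.3 and 0 FPKM in BAC corneas, against 45.8, 31.9, 0 and 51.5 FPKM in PBS corneas, with 0 listed for Sqle-202 in BAC 1, BAC 4 and PBS 3. Mvk-206 fell (log2 change -1.17, SE 0.22, limma adjusted p = 0.00436), and neither Mvk-201 (log2 change -0.35) nor Mvk-202 (log2 change -0.46) passed. Pmvk-203 and Insig2-214 did not pass, with log2 changes of -1.21 and -0.41, and none of the tested isoforms of Nr1h2 passed. FPKM of a gene is not the sum of the FPKM of its transcripts in these tables, so the levels are compared within each table only.

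**Figure D5:**
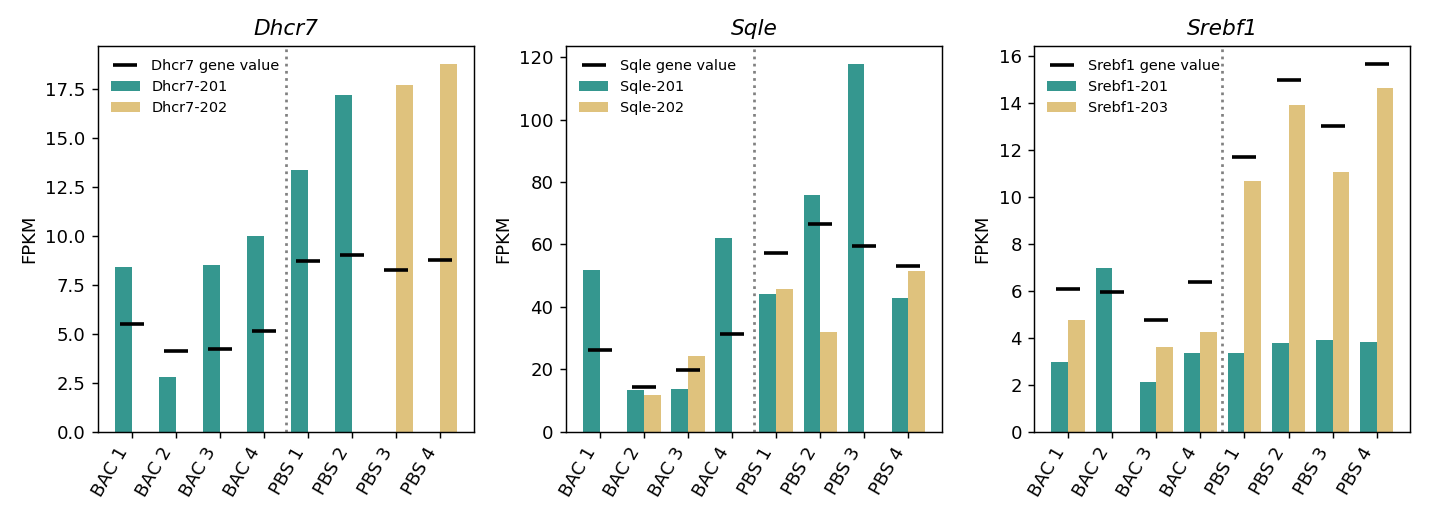
FPKM of the isoforms of Dhcr7, Sqle and Srebf1 in each library, BAC libraries left of PBS libraries, bars starting at 0, with a black dash for the value of the gene. Dhcr7-202 is listed at 0 in PBS 1 and PBS 2 and reaches 17.7 and 18.8 FPKM in PBS 3 and PBS 4, where Dhcr7-201 is listed at 0.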

How the data were processed

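Corneal RNA was prepared with Trizol and sequenced from KAPA stranded libraries, per the labels' protocols. The authors deposited FPKM per gene and per transcript, per the file headers, and the submitters' processing notes name HISAT2 2.1.0, StringTie 1.3.3 and GRCm38 without a role. Groups came from the sample titles, and 0 columns of other samples were present. Genes with a mean of at least 0.5 FPKM over 8 samples were tested on log2(FPKM + 1) with limma 3.58.1 in R 4.3.3 (trended prior, group as the only term, two-sided), with Benjamini-Hochberg adjustment over all genes tested and a threshold of 0.05. The transcript table had the same test, which was checked on simulated data. Only a small part of the simulated rows was changed, all upwards, so the check does not cover changes as wide as in these data. Folds are ratios of mean FPKM, and log2 changes on this scale understate changes of low genes. Whole reads were not recovered. For genes with a single annotated transcript, FPKM times length was taken, and the lowest 300 values above 0 per library were set against many step sizes. At the best step, 15.0% to 24.7% lay within 0.05 of a whole multiple. Chance gives 10% at a single fixed step and more at the best of many, and that higher share was not estimated. Depth is therefore unknown. The members and lists were chosen with earlier results of these data known. All members were named, with up to 3 genes per further pathway list by smallest adjusted p, up to 2 per cell type list by mean FPKM, and isoforms of the 8 members whose transcripts differed most. Retnlg, Mmp8, Soat2 and the genes that passed the filter through BAC were named after their values were seen. Alternatives were a pseudocount of 0.1, no filter or one at 2 FPKM, median-of-ratios, quantile and total scaling, other priors, sample weights, a replicate block, and each sample left out.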

Additional observations from a re-analysis of the deposited data

Results flagged for a closer look

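A library far from the other 3 of its group was looked for in 66 groups of 4 (33 members in BAC and PBS), by the gap to the nearest library over the range of the group and Dixon's critical value. This was met 2 times, and chance at 1 in 20 gives 3.3. Lss, the lanosterol synthase, had 20.1 FPKM in PBS 2, against 14.3 to 14.7 FPKM in the other PBS libraries, a gap of 0.921 of the range. Without PBS 2 the log2 change of Lss was -1.48 (limma adjusted p = 0.000199). Soat1, the cholesterol acyltransferase, had 7.12 FPKM in BAC 3, against 6.42 to 6.52 FPKM in the other BAC libraries, a gap of 0.852 of the range. Without BAC 3 its log2 change was 1.90 (limma adjusted p = 5.64e-07).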

How the results depend on the processing

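Under the alternatives run, 27 to 29 members passed, 6 to 8 higher and 20 or 21 lower. With one library left out, the totals were 28 to 29 for members (8 higher, 20 to 21 lower), 24 to 28 for their transcripts (7 to 9 higher, 16 to 20 lower) and 55 to 59 for the other pathway genes (35 to 38 higher, 20 to 21 lower). Of 593 member values under alternatives, 587 kept direction and side of the threshold. Ggps1 was lost under median-of-ratios and quantile scaling and Npc1 under quantile scaling, Nr1h2 passed under both of those, Acat2 passed without BAC 4, and 0 reversed. Other pathway genes numbered 38 higher and 21 lower, and 29 and 25 with median-of-ratios values. Once quantile-normalized they numbered 23 and 26, so that more were lower than higher there. The same held over all genes, at 38.3% lower and 30.4% higher. With median-of-ratios scaling the log2 changes of Ufd1 (-0.0064), Ubxn4 (-0.042) and Osbpl9 (-4.4e-05) turned, and after quantile normalization those of Mbtps2 (-0.10), Ufd1 (-0.031) and Pdss2 (-0.19, limma adjusted p = 0.0495) turned. The cause was not tested beyond the shift of all genes that these scalings make. Same-numbered BAC and PBS libraries deviated together weakly (r = 0.05, 0.11, 0.12 and 0.11 across genes). Differently numbered pairs ran from -0.12 to 0.10 and were mostly negative, although BAC 1 correlated more with PBS 2 (r = 0.10) than with PBS 1. Deviations within a group sum to 0 for each gene, so positive values in some pairs go with negative ones in others by construction. Nothing in the labels pairs the libraries, and the source of the correlation of same-numbered libraries was not tested. With the replicate number as a block, 28 members passed (8 higher, 20 lower), 23 transcripts (8 higher, 15 lower) and 57 other pathway genes (36 higher, 21 lower). Depth is unknown, so no counting interval can be given for low values such as those of Nr1h3 and Tm7sf2.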
